A study of Mus musculus with 4 samples.

Results

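The 9 genes described here encode products of the secretory cells that line the conducting airways of the mouse lung. They comprise 4 secretoglobins (Scgb1a1, Scgb3a1, Scgb3a2 and Scgb1c1), 2 BPI fold proteins (Bpifa1 and Bpifb1), the carbonyl reductase Cbr2, the antimicrobial lectin Reg3g and the polymeric immunoglobulin receptor Pigr. They were chosen by gene name, and all 9 were found among the 41079 genes of the count table. RNA-seq was performed on total RNA from lungs of wild type (WT) and Rab44-knockout (Rab44-KO) mice under normal conditions and under ovalbumin (OVA)-induced conditions, a model of allergic airway inflammation. The normal groups are labelled as untreated, but the protocol given with them also names an intranasal challenge with PBS, so whether the baseline of each OVA comparison is naive or PBS-challenged mice cannot be told from the sources used here. Rab44 is a large Rab GTPase of immune cells, and the Rab44-KO strain was made by CRISPR/Cas9 editing on a C57BL/6 background. The mice were female littermates aged 8 to 14 weeks. OVA-induced mice received intraperitoneal OVA with alum on days 0, 7 and 14 and then 100 μg OVA in 50 μL intranasally on 4 days, and lungs were collected on day 21. Each of the 4 groups is represented by 1 library and the number of mice behind a library is not given in the sources used here, so no test between groups could be made. Every interval below is a 95% interval that covers counting error only.

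Club cells are the main non-ciliated secretory cells of mouse bronchioles. They release secretoglobins, small disulfide-linked proteins of the airway lining fluid, and carry detoxifying enzymes such as cytochromes P450. Scgb1a1 is the classical club cell secretory protein, and the BPI fold proteins are secreted lipid-binding proteins of the upper and conducting airways that take part in host defence. Pigr is made by secretory epithelium and carries dimeric IgA and pentameric IgM across the cell into the lumen. In allergic inflammation, interleukin-13 drives part of the secretory epithelium towards mucus-producing goblet cells.

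Positions on the chromosomes are those of the GENCODE M21 annotation of GRCm38. Bpifa1 (chr2:154142880-154149219, plus strand) and Bpifb1 (chr2:154190818-154220369, plus strand) lie 41.6 kb apart in a cluster of 13 Bpif genes on chromosome 2, with Bpifa5 between them. Scgb1a1 lies at chr19:9083636-9087958 on the minus strand, Scgb3a1 at chr11:49663610-49665118 on the plus strand and Scgb1c1 at chr7:140845547-140846769 on the plus strand. Cbr2 lies at chr11:120729489-120732114 on the minus strand, Reg3g at chr6:78466269-78468872 on the minus strand, and Pigr at chr1:130826684-130852249 on the plus strand.

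The promoters of Bpifa1, Bpifb1 and Pigr are shown because the neighbours Bpifa1 and Bpifb1 differed in opposite directions after OVA in WT mice and Pigr had the highest log2 ratio to normal among the 9 genes. Each run is the 250 bases upstream of the start in the RefSeq promoter table of GRCm38.p6, on the plus strand from 5′ to 3′, with matches to the searched motifs in capitals.
Bpifa1, chr2:154142630-154142879: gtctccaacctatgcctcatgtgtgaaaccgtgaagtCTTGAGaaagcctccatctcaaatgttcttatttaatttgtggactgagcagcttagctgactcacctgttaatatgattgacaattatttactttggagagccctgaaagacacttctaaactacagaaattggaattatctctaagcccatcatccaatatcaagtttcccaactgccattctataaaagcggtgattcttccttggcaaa
Bpifb1, chr2:154190568-154190817: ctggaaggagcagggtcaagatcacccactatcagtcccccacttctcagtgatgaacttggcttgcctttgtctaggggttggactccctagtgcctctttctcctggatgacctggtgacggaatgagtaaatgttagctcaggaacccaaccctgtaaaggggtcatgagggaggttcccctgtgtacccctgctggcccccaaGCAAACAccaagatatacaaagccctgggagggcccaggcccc
Pigr, chr1:130826434-130826683: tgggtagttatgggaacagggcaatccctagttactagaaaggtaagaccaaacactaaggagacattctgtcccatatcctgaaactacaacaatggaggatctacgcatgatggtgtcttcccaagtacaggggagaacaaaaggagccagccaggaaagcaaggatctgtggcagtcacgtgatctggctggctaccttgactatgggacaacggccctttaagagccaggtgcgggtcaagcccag

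The motifs searched on both strands were TGTTTAC or TGTTTGC for FOXA factors, CTTGAG for NKX2-1, TTGC and AA with 2 bases between them for C/EBP factors, and TTC and GAA with 3 or 4 bases between them for STAT factors. Bpifa1 held a single NKX2-1 match that began 213 bases upstream of the start, and the Bpifb1 window shown held a single FOXA match, on the minus strand, 43 bases upstream. The Pigr window held no match to these letters. Among the other genes with an entry, Scgb3a1 had a FOXA, an NKX2-1 and a STAT match (3 bases between), Scgb1c1 a FOXA and an NKX2-1 match, Reg3g an NKX2-1 match and Cbr2 none. No 2 matches overlapped. Of 32841 RefSeq promoter windows of this length, 7.30% held the FOXA letters, 13.3% NKX2-1, 9.57% C/EBP, 7.02% STAT with 3 bases between and 5.85% STAT with 4 bases between. A match describes the letters and not a bound site. The table had an entry for 7 of the 9 genes, and Bpifb1 has a further annotated start, whose window held a STAT match (3 bases between) 146 bases upstream.

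The libraries held 18112901 to 19910236 counts and 24316 to 25003 genes with a count. Rab44 had 251 and 1 counts in the WT and Rab44-KO lungs under normal conditions and 810 and 0 after OVA, where a count of 0 allows up to 0.154 CPM (counts scaled to a library of 1000000 counts). All 10 alveolar type 2 and all 9 alveolar type 1 genes listed had counts in every library, whereas the olfactory genes Obp1a, Obp1b, Obp2a and Ugt2a1, the salivary genes Dcpp1, Dcpp2 and Dcpp3 and the cartilage genes Acan and Col9a1 had 0 counts in all 4. Other genes of these lists were present, among them Gstm2 with 2202 to 3206 counts, Adcy3 with 485 to 672, Ltf with 298 to 795 and Col11a2 with 48 to 131. The 9 secretory genes took 2.95% and 2.93% of all counts in the normal WT and Rab44-KO lungs, and 1.98% and 2.24% in the OVA-induced WT and Rab44-KO lungs. Where 4 values follow each other below without names, they are given in that order. Scgb1a1 alone made up 77.5 to 83.3% of that sum.

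To compare levels between genes, deposited TPM values, which share out each library over its transcripts after scaling for gene length, were used. Scgb1a1 was the most abundant transcript of the lung in all 4 libraries, at 116600 and 116500 TPM in the normal WT and Rab44-KO lungs and 74450 and 103200 TPM after OVA. Cbr2 came next among the 9 genes, at 12460, 11860, 5895 and 6991 TPM, which placed it between rank 3 and rank 10 of all genes. Scgb3a2 followed, at 2093, 2916, 1024 and 1968 TPM. These top levels kept 1 order in every library, with counting intervals that did not overlap.

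The lower ranks were less fixed. In normal WT lungs Scgb3a1 (454 TPM) and Bpifa1 (433 TPM) had overlapping intervals, as did Bpifb1 (92.0 TPM) and Reg3g (84.6 TPM), followed by Scgb1c1 (47.6 TPM) and Pigr (27.2 TPM). In OVA-induced WT lungs Pigr (149 TPM) ranked above Bpifb1 and Bpifa1 (23.8 TPM) last. Yet the intervals of Pigr and Bpifb1 (142 TPM), of Bpifb1 and Reg3g (128 TPM), and of Scgb1c1 (25.6 TPM) and Bpifa1 overlapped there. In both Rab44-KO libraries no neighbouring intervals overlapped, and Bpifa1 stood above Bpifb1. The TPM ratio of Bpifa1 to Bpifb1 was 4.71 and 4.70 in the normal WT and Rab44-KO lungs and 0.168 and 2.26 after OVA, so the order of these neighbouring genes was turned in the OVA-induced WT library alone.

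**Figure D1:**
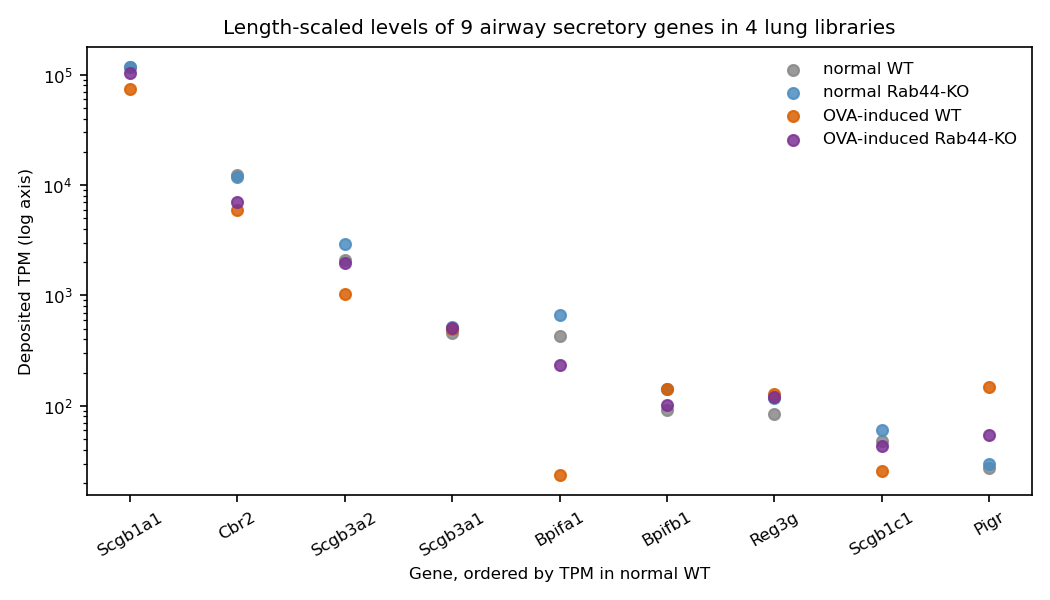
Deposited TPM (log axis) of the 9 genes, ordered by the normal WT library, with 1 point per library. Scgb1a1 sits between 74450 and 116600 TPM, and the widest scatter is that of Bpifa1, from 23.8 TPM in OVA-induced WT to 670.0 TPM in normal Rab44-KO lungs.

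Differences between libraries are given as log2 fold change (log2FC) of CPM scaled by the trimmed mean of M values (TMM), and a gene is called higher or lower when it differed by over 2-fold and reached 10 counts in either library. Under normal conditions, 0 of the 9 genes differed by over 2-fold between Rab44-KO and WT mice in either direction, beside 4.77% of 18718 genes. Under OVA-induced conditions, 1 gene was higher in Rab44-KO mice (Bpifa1) and 1 lower (Pigr), beside 8.40% of 19259 genes higher and 7.34% lower. In WT mice, 1 gene was higher after OVA (Pigr) and 1 lower (Bpifa1), beside 8.99% of 19023 genes higher and 5.20% lower. In Rab44-KO mice, 0 were higher and 1 was lower after OVA (Bpifa1), beside 6.44% of 19073 genes higher and 3.85% lower. The counts of higher or lower genes among the 9 thus stood at 0 or 1 throughout. They depended on scaling. With the length trend removed, 3 were higher and 1 lower in Rab44-KO mice after OVA, beside 9.02% and 5.72% of all genes, and 1 was higher and 4 were lower for OVA in WT mice, beside 8.52% and 5.55%. By TPM, 1 was higher and 3 were lower for OVA in WT mice, beside 6.69% and 5.79%.

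The median log2FC of the 9 genes between Rab44-KO and WT was 0.31 under normal conditions, where the median of all genes was 0.00. It was -0.08 under OVA-induced conditions (all genes -0.02), and this median was 0.25 on the TPM scale, where all genes had a median of 0.29, and 0.38 once a trend of log2FC with gene length was removed. After OVA it was -0.47 in WT mice (all genes 0.00) and -0.60 in Rab44-KO mice (all genes -0.01). Most of the 9 genes lay below normal after OVA, with 4 of 9 above 0 in WT and 1 of 9 in Rab44-KO mice. The values are shares of each library of bulk lung, so fewer secretory cells, less RNA per cell and other reasons cannot be told apart.

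**Figure D2:**
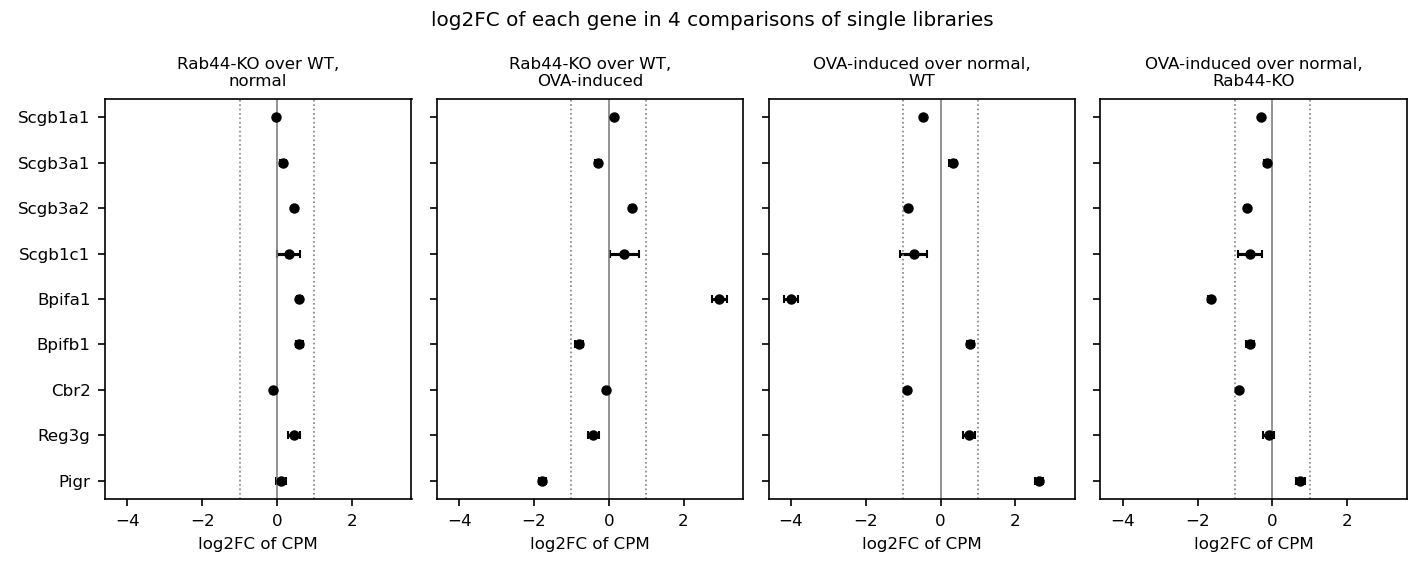
log2FC of TMM-scaled CPM for the 9 genes in 4 comparisons of single libraries, with 95% Clopper-Pearson intervals (counting error only) and dotted lines at a 2-fold difference. Bpifa1 and Pigr are the genes beyond the dotted lines, and for Scgb3a1, Cbr2 and Reg3g, which lie between -0.41 and -0.08 for Rab44-KO over WT under OVA-induced conditions, the sign turned when the length trend was removed; so did that of Scgb3a1 and Reg3g for OVA in Rab44-KO mice.

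Among the secretoglobins, Scgb1a1 had 440878 and 410819 counts in the normal WT and Rab44-KO lungs and 320451 and 356547 after OVA. Both OVA-induced libraries were lower than both normal libraries, with a log2FC of -0.47 in WT and -0.30 in Rab44-KO mice. Between genotypes the log2FC was -0.03 under normal and 0.14 under OVA-induced conditions, and the latter was 0.47 on the TPM scale and 0.67 with the length trend removed.

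Scgb3a2, a secretoglobin of the conducting airways encoded at chr18:43764289-43767399 on the plus strand, had 12526, 16282, 6977 and 10766 counts. It was lower after OVA by a log2FC of -0.86 (-0.90 to -0.81) in WT and -0.69 (-0.73 to -0.66) in Rab44-KO mice, and the Rab44-KO library was the higher of the pair in both conditions, by 0.45 (0.42 to 0.49) without and 0.62 (0.57 to 0.66) with OVA. Relative to Scgb1a1, its TPM therefore varied, and the TPM ratio of Scgb1a1 to Scgb3a2 ranged from 39.9 in normal Rab44-KO to 72.7 in OVA-induced WT lungs. None of these differences reached 2-fold on the TMM scale, where the whole span over the 4 libraries was 2.48-fold. For OVA in WT mice the log2FC was -1.03 by TPM and -1.04 with the length trend removed, and between genotypes after OVA it was 1.14 with that trend removed, all over 2-fold.

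Scgb3a1, a secretoglobin of larger airways, varied least of the 9 genes, with 2248, 2390, 2821 and 2300 counts and a span of 1.24-fold. Its log2FC was 0.16 between genotypes under normal conditions and 0.32 for OVA in WT mice. The values of -0.30 between genotypes under OVA-induced conditions and -0.15 for OVA in Rab44-KO mice became 0.16 and 0.03 with the length trend removed, and the former 0.02 on the TPM scale.

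Scgb1c1, a scarce secretoglobin, had 168, 198, 103 and 139 counts. It was lower after OVA in both genotypes (log2FC -0.72, interval -1.09 to -0.36, in WT and -0.61, -0.93 to -0.29, in Rab44-KO mice), and the Rab44-KO library was higher in both conditions by 0.31 (0.01 to 0.62) and 0.42 (0.04 to 0.80). With the length trend removed, OVA in WT mice gave -1.17, over 2-fold, and the difference between genotypes after OVA was 1.0. The annotation places the genes Gm45785 and C330022C24Rik on the opposite strand across Scgb1c1, and C330022C24Rik had 141, 166, 95 and 113 counts, the same order over the libraries. Whether reads were counted by strand is not given in the sources used here, so reads of Scgb1c1 and of its antisense partners cannot be told apart.

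**Figure D3:**
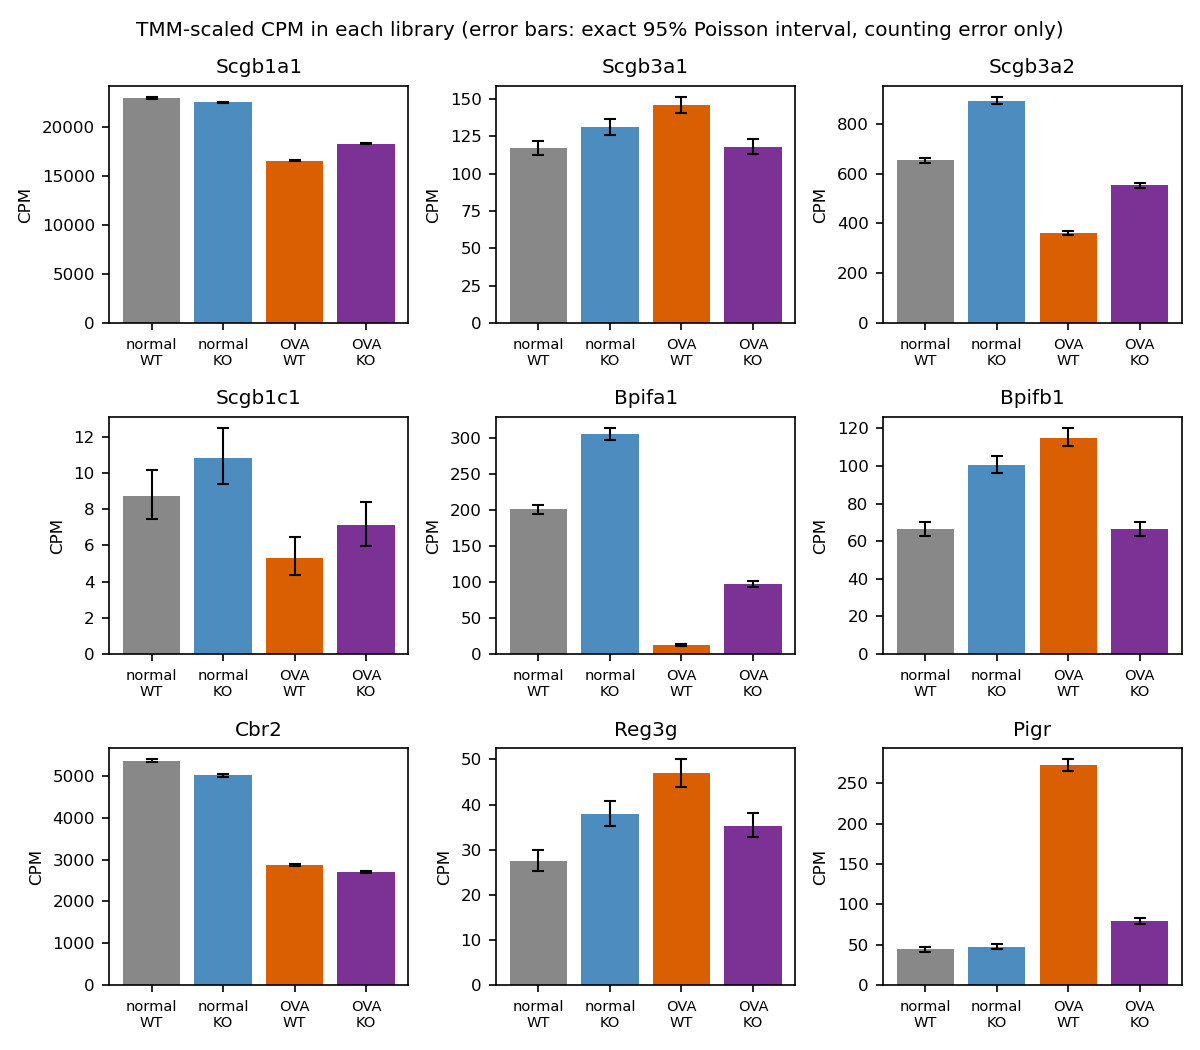
TMM-scaled CPM of each of the 9 genes in the 4 libraries, with 1 bar per library from 0 and exact 95% Poisson intervals as error bars. Bpifa1 has its lowest bar, 12.5 CPM, for OVA-induced WT lungs, where Pigr has its highest, 272 CPM.

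Bpifa1, also called SPLUNC1, a secreted antimicrobial and surface-active protein of the proximal airways, differed most of the 9 genes. It had 3863 counts (201 CPM) in WT and 5575 (305.5 CPM) in Rab44-KO lungs under normal conditions, and 242 (12.5 CPM) in WT and 1892 (97.05 CPM) in Rab44-KO lungs after OVA. The OVA-induced WT library was far below the other 3. In WT mice Bpifa1 was 16.1-fold lower after OVA (log2FC -4.01, interval -4.20 to -3.82), the lowest log2FC of the 13575 genes that reached 100 counts in either library. In Rab44-KO mice it was 3.15-fold lower (log2FC -1.65, -1.73 to -1.58), at rank 35 from the lowest of 13484 genes. Between genotypes, Bpifa1 was 7.76-fold higher in Rab44-KO than WT mice under OVA-induced conditions (log2FC 2.96, 2.76 to 3.16), the log2FC at rank 10 from the highest of 13704 genes. Under normal conditions it was 1.52-fold higher (log2FC 0.60, 0.54 to 0.66).

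Bpifb1, also called LPLUNC1, a larger secreted BPI fold protein of airway secretory cells, had 1272 and 1838 counts in the normal WT and Rab44-KO lungs and 2230 and 1296 after OVA. Here the OVA-induced WT library was the highest on the TMM scale. By TPM the OVA-induced WT (141.6 TPM) and normal Rab44-KO (142.5 TPM) libraries had overlapping intervals. The log2FC of OVA over normal was 0.80 (0.70 to 0.90) in WT and -0.60 (-0.70 to -0.50) in Rab44-KO mice. Between genotypes it was 0.60 (0.50 to 0.71) without and -0.79 (-0.89 to -0.69) with OVA. Of the 12 other Bpif genes, Bpifb5 alone had at least 10 counts in a library, and its counts of 80, 80, 106 and 51 gave a log2FC of -1.06 (-1.58 to -0.57) between genotypes under OVA-induced conditions. By TPM, Bpifb5 stood at 6.83 and 4.09 in the OVA-induced WT and Rab44-KO lungs, under 2-fold apart. Bpifa5, which lies between Bpifa1 and Bpifb1, had 0 counts in all 4 libraries.

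The basal cell keratins Krt5 and Krt15 were also scarcer in both OVA-induced libraries. Krt5 had 11, 26, 1 and 4 counts and Krt15 29, 64, 2 and 2, so that the sum of both was 40 and 90 in the normal WT and Rab44-KO lungs and 3 and 6 in the OVA-induced ones. Both genes were singled out after their values were seen, and other genes of the list went the other way in WT mice. Krt14 had 1, 6, 12 and 8 counts and Aqp3 28, 43, 103 and 27, and the log2FC of Aqp3 for OVA in WT mice was 1.86. In Rab44-KO mice the log2FC for OVA was -0.76 for Aqp3 and 0.31 for Krt14. Over the whole list of 8 basal cell genes, the summed CPM was 7.50, 10.9, 9.66 and 5.64, or 6.04, 8.55, 4.34 and 4.26 without Aqp3, Krt17 was at 0 in 3 libraries, and Trp63, which defines basal cells, had 25, 25, 12 and 25 counts. The summed CPM of 10 genes of airway cartilage was 5.26, 4.55, 9.91 and 8.72, and without Col11a2 the 9 others summed to 2.76, 1.81, 4.08 and 2.0. The part of these markers in the result for Bpifa1 was not tested.

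Cbr2, a carbonyl reductase abundant in club cells, had 103156, 91607, 55568 and 52895 counts. Its libraries separated by condition, with a log2FC after OVA of -0.90 (-0.92 to -0.89) in WT and -0.89 (-0.90 to -0.87) in Rab44-KO mice. In WT mice it was -1.08 by TPM and -1.09 with the length trend removed, both over 2-fold. Between genotypes the log2FC was -0.10 under normal conditions and -0.08 under OVA-induced conditions, and the latter was 0.25 on the TPM scale and 0.38 without the length trend. A further gene, Gm11771, shares 1.62% of the 150-base windows of the Cbr2 transcripts. Of 6 other carbonyl and dicarbonyl reductases, 1 exceeded 2-fold in any comparison, namely Cbr3, with a log2FC of 1.01 (0.83 to 1.19) between genotypes under normal conditions, and the median of the 6 after OVA was 0.02 in WT and -0.28 in Rab44-KO mice.

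Reg3g, a secreted lectin that binds Gram-positive bacteria, had 528, 692, 908 and 689 counts. The normal WT library was the lowest and the OVA-induced WT library the highest, with a log2FC of 0.77 (0.61 to 0.93). In Rab44-KO mice the log2FC of OVA over normal was -0.10 with an interval of -0.26 to 0.05 that spanned 0, and was 0.02 on the TPM scale. Between genotypes Reg3g had a log2FC of 0.46 (0.30 to 0.63) without and -0.41 (-0.55 to -0.26) with OVA, and the latter became 0.11 with the length trend removed. None of the 6 other Reg genes had 10 counts in any library.

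Reg3g is a known target of interleukin-17 and interleukin-22 in epithelium. Of 16 genes of that axis, Il22 had 0 counts in all 4 libraries and Il17a had 0, 0, 0 and 4, genes named for their role after their values were seen. In WT mice 6 of the 11 axis genes with at least 10 counts were higher after OVA and 0 lower (median log2FC 2.57), and in Rab44-KO mice 5 were higher and 1 lower (median 0.81). Lcn2, a siderophore-binding protein of inflamed epithelium and neutrophils, had 1046, 1443, 9933 and 2710 counts. The neutrophil genes S100a8 and S100a9, with 336, 367, 2012 and 2693 and 538, 558, 3461 and 4872 counts, were instead highest in the OVA-induced Rab44-KO library (log2FC between genotypes after OVA 0.41 and 0.48). Under OVA-induced conditions 0 of these genes were higher and 5 lower in Rab44-KO mice (median -0.43), and under normal conditions 1 was higher and 0 lower (median 0.25).

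Pigr had 845 counts (44.01 CPM) in WT and 869 (47.6 CPM) in Rab44-KO lungs under normal conditions, and 5270 (272 CPM) in WT and 1549 (79.5 CPM) in Rab44-KO lungs after OVA. The normal libraries differed by a log2FC of 0.11, whose interval of -0.02 to 0.25 spanned 0, and the OVA-induced WT library stood above the rest. In WT mice Pigr was 6.18-fold higher after OVA (log2FC 2.63, 2.52 to 2.73), whereas in Rab44-KO mice it was 1.67-fold higher (log2FC 0.74, 0.62 to 0.86). Under OVA-induced conditions Pigr was 3.42-fold lower in Rab44-KO than WT mice (log2FC -1.78, -1.86 to -1.69), at rank 177 from the lowest of 13704 genes.

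The cargo of Pigr had a similar order of levels. Jchain, the chain that joins IgA and IgM into polymers, had 266, 521, 15799 and 4761 counts, Ighm 2103, 2070, 56984 and 9570, and Igha 689, 1396, 15811 and 12100. Among 10 genes of polymeric immunoglobulin transport, 3 were higher after OVA in each genotype, which were Jchain, Ighm and Igha, and under OVA-induced conditions Jchain (log2FC -1.74) and Ighm (-2.58) were lower in Rab44-KO mice. Under normal conditions Jchain (1.04) and Igha (1.09) were higher in Rab44-KO mice. The 7 other genes, which include the transport factors Rab3d, Rab11a, Rab25 and Myo5b, exceeded 2-fold in none of the 4 comparisons. The part of antibody-secreting cells in these values was not tested.

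The OVA response was then set side by side in both genotypes. The responses of Cbr2, Scgb1a1, Scgb3a2 and Scgb1c1 differed by 0.02, 0.17, 0.16 and 0.11 on the log2 scale (Rab44-KO minus WT), and the interval for Scgb1c1, -0.36 to 0.58, spanned 0. Those of Bpifa1 and Pigr lay furthest apart, by 2.35 (2.15 to 2.56) and -1.89 (-2.05 to -1.73), and for both the response had the same sign in each genotype and was smaller in Rab44-KO mice. Bpifb1 and Reg3g differed by -1.40 (-1.54 to -1.25) and -0.87 (-1.09 to -0.65), and Scgb3a1 by -0.47 (-0.58 to -0.35). The smaller differences depended on scaling, since with the length trend removed those of Cbr2, Scgb1a1, Scgb3a2 and Scgb1c1 were 0.41, 0.53, 0.56 and 0.39 and that of Scgb3a1 was -0.12. Without replicates these differences have no test beyond counting error.

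**Figure D4:**
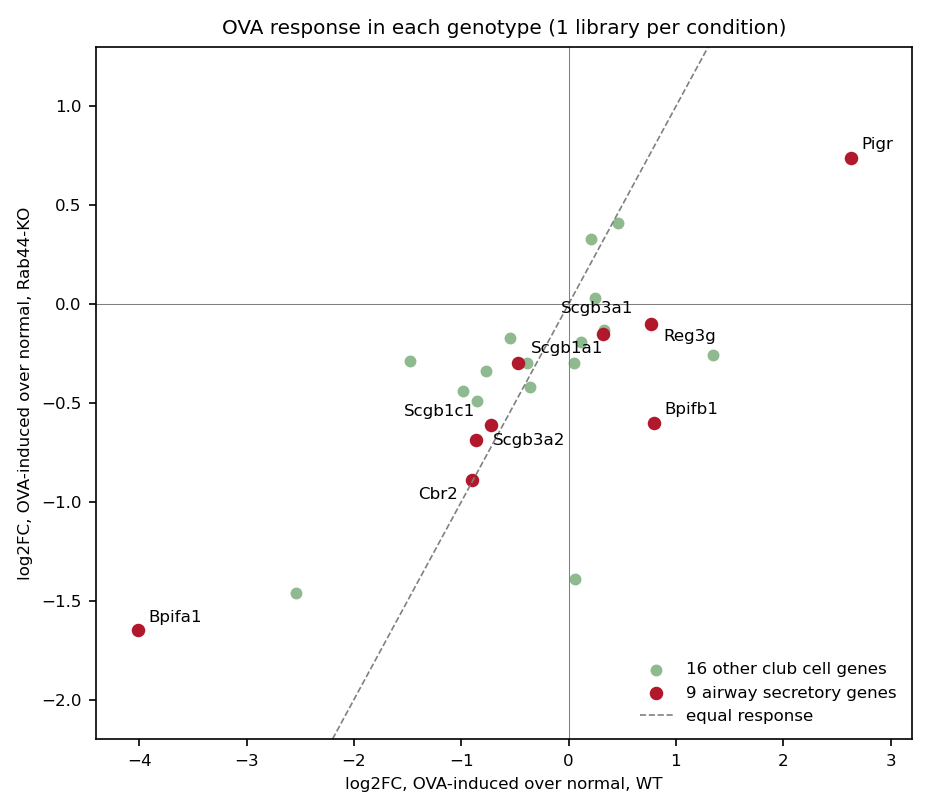
log2FC of OVA over normal in WT mice (x axis) against Rab44-KO mice (y axis) for the 9 genes (red, named) and 16 other club cell genes (green), with a dashed line where both are equal. Cbr2 lies on the line at -0.90 and -0.89, Bpifa1 lies above it at -4.01 and -1.65, and Pigr lies below it at 2.63 and 0.74; the signs of Scgb3a1 and Reg3g on the y axis turned with the length trend removed.

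Other club cell genes were examined to see whether they shared these patterns. Of the 16, all had at least 10 counts, and under normal conditions 0 differed by over 2-fold between genotypes (median log2FC 0.11). In WT mice 1 was higher after OVA, the gel-forming mucin Muc5b (log2FC 1.35), and 2 were lower, among them the cytochrome P450 Cyp2a5 (-2.54), with a median of -0.15. Cyp2f2, the cytochrome P450 that marks club cells, had 41338, 50865, 21168 and 40056 counts, and its log2FC after OVA was -0.98 in WT and -0.44 in Rab44-KO mice, beside -0.90 and -0.89 for Cbr2 and -0.86 and -0.69 for Scgb3a2. In Rab44-KO mice 0 were higher and 2 lower, Cyp2a5 (-1.46) and Lypd2 (-1.39), with a median of -0.29. Under OVA-induced conditions 2 were higher in Rab44-KO mice, among them Cyp2a5 (1.24), and 2 lower, Muc5b (-1.53) and Lypd2 (-1.05), with a median of 0.16. These calls depended on scaling. By TPM, Lypd2 stood at 80.06 and 48.35 in the OVA-induced WT and Rab44-KO lungs, under 2-fold apart. On that scale Cyp2f2 (1265 and 2981 TPM) and Gsta3 (178.1 and 367.2 TPM) were over 2-fold higher in Rab44-KO lungs. Cyp2a5 thus lay on the side of Bpifa1, and Muc5b on that of Bpifb1 and Pigr. Of 37 other secretoglobin genes, none had 10 counts in any library.

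Markers of other airway and alveolar cells differed over the same libraries. The summed CPM of 11 goblet cell and mucus genes was 85.5, 88.9, 2104 and 75.9, which was highest in the OVA-induced WT library where Bpifa1 was lowest and Pigr highest. Muc5b stands in this list and in that of other club cell genes, and without it the 10 others summed to 29.7, 29.6, 1962 and 26.5 CPM. In the whole list 9 of 11 genes were higher after OVA in WT mice (median log2FC 2.17) and 10 of 11 were lower in Rab44-KO than WT mice under OVA-induced conditions (median -3.08). Clca1, a secreted goblet cell protein, had 47, 108, 33407 and 77 counts. In Rab44-KO mice 0 of 9 were higher and 1 lower after OVA, and under normal conditions 1 was higher and 0 lower. A list of 18 type 2 response genes, which shares members with the former, gave 13 higher and 0 lower of 17 after OVA in WT mice, 3 higher and 0 lower of 15 in Rab44-KO mice, 0 higher and 13 lower of 17 between genotypes under OVA-induced conditions, and 1 higher and 0 lower of 14 under normal conditions.

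The summed CPM of 12 ciliated cell genes was 3462, 3044, 2234 and 2547. Without Sec14l3, which both the ciliated and the club cell list hold, the 11 others summed to 895, 766.0, 733 and 753 CPM, and the median of the 12 genes, 45.9, 39.0, 38.1 and 51.3 CPM, was highest in the OVA-induced Rab44-KO library. Among the 12, Hydin (log2FC 1.69) alone exceeded 2-fold, between genotypes under OVA-induced conditions. The length trend in that comparison ran from -0.47 for the shortest to 0.45 for the longest genes. It was not removed from the values of the marker lists. The sum of 16 other club cell genes was 6571, 7080, 4257 and 5427, that of 10 alveolar type 2 genes 22080, 22390, 32130 and 19520, and that of 9 alveolar type 1 genes 6731, 6152, 5046 and 4916. The alveolar type 2 sum rested largely on Sftpc, the surfactant protein C gene, without which the 9 others summed to 8423, 9357, 13440 and 10230 CPM. The median of the 10 genes was 544, 573, 1058 and 674 CPM, so of these 3 measures only the full sum was lowest in the OVA-induced Rab44-KO library. The club cell sum rested largely on Cyp2f2 and Sec14l3. Without them the 14 others summed to 1851, 2014, 1663 and 1578 CPM, and the median of the 16 genes, 77.3, 77.9, 79.8 and 66.4 CPM, was highest in the OVA-induced WT library. The summed CPM of 14 submucosal and salivary gland genes was 31.9, 33.4, 54.1 and 44.2, but without Ltf the 13 others summed to 16.4, 15.9, 13.1 and 20.5. That of 10 nasal and olfactory genes was 194.5, 200.8, 151 and 159.8, and without Gstm2 the 9 others summed to 27.5, 33.4, 37.4 and 31.8. The part of these cell types in the values of the 9 genes was not tested.

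**Figure D5:**
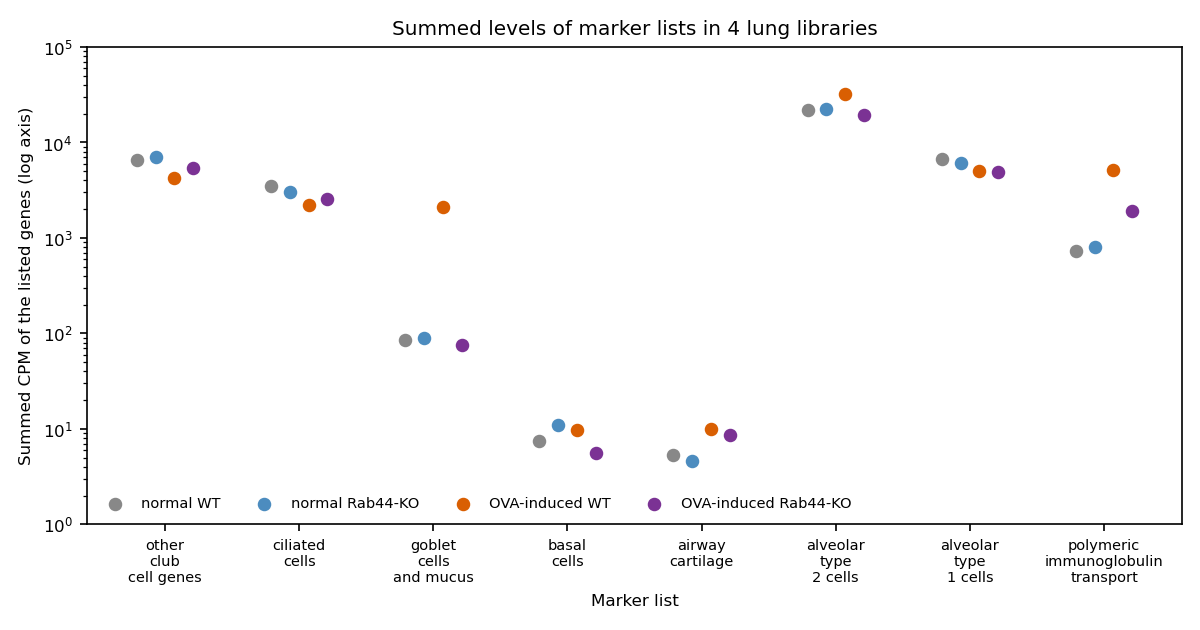
Summed TMM-scaled CPM (log axis) of 8 marker lists, with 1 point per library. The goblet cell and mucus list stands at 2104 CPM in OVA-induced WT lungs and between 75.9 and 88.9 CPM in the others, while the other club cell genes range from 4257 to 7080 CPM.

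Transcription factors of the airway epithelium were examined as well. Of 14 such genes, 0 of 13 exceeded 2-fold under normal conditions or after OVA in Rab44-KO mice, 2 of 14 were higher after OVA in WT mice and 2 of 14 were lower in Rab44-KO than WT mice under OVA-induced conditions. These 2 were Spdef, the goblet cell factor, with 37, 36, 119 and 20 counts, and Foxa3, a FOXA factor named here after its values were seen, with 2, 5, 32 and 4 counts and a log2FC of 3.91 (2.02 to 7.09) for OVA in WT mice and -2.97 (-4.97 to -1.51) between genotypes after OVA. Nkx2-1, whose letters occur in the Bpifa1 window, had 3524, 3502, 3230 and 2826 counts, and the other FOXA factors, Foxa1 and Foxa2, had 710, 662, 561 and 736 and 795, 601, 678 and 524. On the TPM scale Nkx2-1 stood at 118.5, 126, 95.4 and 104 TPM, so its lowest library depended on the scale.

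For the 4 genes that spanned over 2-fold across the libraries, the genes with the most similar log2 CPM profile were sought among 13153 genes, by Euclidean distance over the 4 libraries. Bpifa1, with a span of 24.4-fold, had no close neighbour. The nearest were Nppa (distance 1.13, with 341, 541, 38 and 99 counts), which encodes atrial natriuretic peptide, Car3 (1.15, with 767, 1214, 128 and 416 counts), a carbonic anhydrase, and Sult1d1 (1.43, with 533, 683, 91 and 604 counts), a sulfotransferase. Pigr was nearest to Aldh1l2 (0.24), Ms4a6d (0.27) and Mreg (0.32). Scgb3a2 was nearest to Osgin1 (0.04), Gm57643 (0.08) and Gm30543 (0.10), and Scgb1c1 to Grtp1 (0.07), Zc3hav1l (0.07) and Zfp799 (0.08). With 4 points and many genes, small distances are common and describe these libraries only.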

How the data were processed

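Total RNA from lung was sequenced with a directional library kit as 150-base paired-end reads. Per the paper's methods and the submitters' processing notes, the authors trimmed reads, aligned them to GRCm38 with HISAT2 and deposited raw counts per gene from featureCounts, and TPM scaled by gene length. Tool versions and strand setting are not given in the sources used here. DESeq2 is also named in those notes. Counts were scaled by TMM over all 4 libraries (edgeR 4.0.16, R 4.3.3), and log2FC used a prior count of 0.125. Genes needed 10 counts in the higher library. Intervals are exact Clopper-Pearson intervals of count ratios and exact Poisson intervals of CPM at 95%, for counting error alone. A gene without counts was allowed up to 3. Scripts were tested on simulated data. With 1 library per group no p was computed. Samples were grouped by the genotype and treatment labels. Named genes were all 9 members, from each list up to 4 genes with the largest log2FC among those with at least 100 counts, and for each member spanning over 2-fold its 3 nearest profiles. Other genes of the lists, such as Krt5, Trp63, Il22 and Rab11a, were named for their role after their values were seen. The 9 genes and the 17 lists were chosen with earlier results of these data known. Alternatives were DESeq2 1.42.0 size factors, total counts, TMM on each pair, TPM with a pseudocount of 0.1, a prior count of 2, count minimums of 1 and 100, thinned counts and, chosen after seeing the data, removal of a running-median trend with gene length over 501 genes and omission of Bpifa1 and Pigr. A gene that meets the naming rule is not reported here. Deposited coordinates were not used, and positions were taken from GENCODE M21 by symbol.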

Additional observations from a re-analysis of the deposited data

Results flagged for a closer look

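For 4 of the 9 genes, the values moved in opposite directions in the libraries compared, and none of these differences was tested, since each group holds 1 library. Bpifb1 was higher after OVA in WT and lower in Rab44-KO mice, and higher in Rab44-KO than WT mice under normal and lower under OVA-induced conditions, with a difference of -1.40 on the log2 scale for either contrast. Reg3g was higher in Rab44-KO mice under normal and lower under OVA-induced conditions, a difference of -0.87, and the second direction turned when the length trend was removed. Scgb3a1 showed opposite directions in both contrasts, with a difference of -0.47, and its directions under OVA-induced conditions turned on the TPM scale or with the length trend removed. Scgb1a1 had a difference of 0.17 between the normal and OVA-induced genotype contrasts, whose log2FC were -0.03 and 0.14. The former is a 1.02-fold difference that lay between -0.04 and 0.00 over the scalings tried, so its direction carries little weight.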

How the results depend on the processing

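No paired analysis was possible because each group holds 1 library, and for the same reason no library could be left out. Each member's log2FC was recomputed in 7 ways per comparison, and 56, 44, 46 and 48 of 63 values stayed within the counting interval for Rab44-KO over WT under normal and OVA-induced conditions and OVA over normal in WT and Rab44-KO mice, respectively, and no value over 2-fold changed sign. The values outside it came mainly from TPM, which moved the median of all genes to 0.29, -0.16 and 0.11 in the last 3 comparisons, and from removal of the length trend, which at the members was -0.58 to 0.01, 0.01 to 0.46 and -0.21 to 0.18. Under OVA-induced conditions the median of the members between genotypes was 0.25 by TPM and 0.38 without the length trend, and 4 members (3 higher, 1 lower) exceeded 2-fold without the trend, beside 9.02% of all genes higher and 5.72% lower. After OVA in WT mice the median was -0.65 and -0.82 and the number over 2-fold 4 (1 higher, 3 lower, beside 6.69% and 5.79% of all genes) and 5 (1 higher, 4 lower, beside 8.52% and 5.55%). In Rab44-KO mice the median was -0.47 and -0.48. The difference of the OVA response (Rab44-KO minus WT) by TPM was 0.47 for Scgb1a1, -0.17 for Scgb3a1, 0.46 for Scgb3a2, 2.65 for Bpifa1, -1.10 for Bpifb1, 0.32 for Cbr2, -0.57 for Reg3g and -1.59 for Pigr. Without the length trend it was 0.53, -0.12, 0.56, 2.70, -1.17, 0.41 and -0.47 for the same genes other than Pigr, and by total counts 0.23 for Scgb1a1 and 0.08 for Cbr2. Omission of Bpifa1 and Pigr could not move the medians, since they lie on opposite sides of each. The cause of the shifts was not tested.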
